A study of Cricetulus griseus with 6 samples.

Results

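The comparison described here was between CHO-K6 cells treated with trastuzumab + pertuzumab and untreated CHO-K6 cells. It covered every transcript cluster of the arrays and rested on 2 of the 6 arrays of the series, 1 for each condition. CHO-K1 is a line from the ovary of the Chinese hamster, labelled epithelial and wild type, and CHO-K6 was made from it and stably overexpresses human HER2. CHO-K6 is 1 line, so its clone and the transgene cannot be told apart. The treated CHO-K6 cells received trastuzumab + pertuzumab at 10 µg/mL for 24 h, and the labels do not say whether this is the dose of each antibody or of both together. All cells were first held in low serum and then given fresh medium with full serum, with the antibodies in the treated dishes and none in the untreated ones. For comparison, 1 array each was available for CHO-K6 with trastuzumab, CHO-K6 with pertuzumab, CHO-K1 with the combination and CHO-K1 untreated. No array with a control antibody was analysed here.

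HER2 is a receptor tyrosine kinase that pairs with itself or with other members of the EGFR family. Its phosphorylated tail recruits adaptor proteins that feed the RAS-ERK and PI3K-AKT pathways, which drive immediate early genes, cyclins and the cell cycle. Trastuzumab binds HER2 close to the membrane, and pertuzumab binds the part of HER2 that contacts a partner receptor, so both can occupy the same molecule. In CHO-K6, however, the authors report that PI3K-AKT and MAPK signalling downstream of HER2 does not function. The question of the comparison was whether RNA levels differed with both antibodies in cells that overexpress human HER2.

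The values are log2 signals, as the authors deposited them, and a difference is the signal on the combination array minus that on the untreated array. With 1 array a side there was no spread between replicates, and no p-value, SD between cultures or false discovery rate could be given. Every difference below is therefore one between these arrays. The median log2 signal was 5.89 to 5.91 on the 6 arrays. Of 29700 transcripts, 16481 carried exactly 1 gene symbol, 793 carried several and 12426 none. A gene was represented by its transcript with the highest mean signal over the 6 arrays, which gave 14899 genes, of which 9054 had a mean log2 signal of 6 or more on the 2 arrays compared. A log2 signal of 6 was used as the floor because the differences scatter more below it. The hamster Erbb2 gene had a log2 signal of 9.01 on the combination array and 9.01 on the untreated array, and this value was not taken as a measure of the human transgene. The label of an epithelial line was checked against marker genes. Of 8 epithelial markers measured only Tjp3 lay above the floor, and Epcam (4.44), Krt8 (4.59), Krt18 (4.49) and Cdh1 (5.91) lay below it on the combination array. Of 14 mesenchymal markers measured 10 lay above the floor. Among these were Vim (13.27), Fn1 (11.4), Zeb1 (10.07) and Snai2 (9.83) on the combination array. The mesenchymal markers Cdh2 (5.4), Thy1 (5.04) and Cdh11 (4.5) lay below the floor on that array.

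The combination array lay very close to the untreated array. Over the 9054 genes above the floor the difference had a median of 0.01 and an SD across genes of 0.122, and 52.7% of the genes were higher and 43.6% lower with the combination. Between the treated and the untreated CHO-K1 array the same genes had an SD of 0.194, with a median of 0.02. The line without human HER2 thus showed a wider scatter between its treated and untreated arrays than CHO-K6 did. Scatter in CHO-K6 narrowed with signal. The SD across transcripts was 0.267 below a log2 signal of 4, 0.188 between 6 and 7, 0.12 between 8 and 9, and 0.087 at 11 and above.

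**Figure D1:**
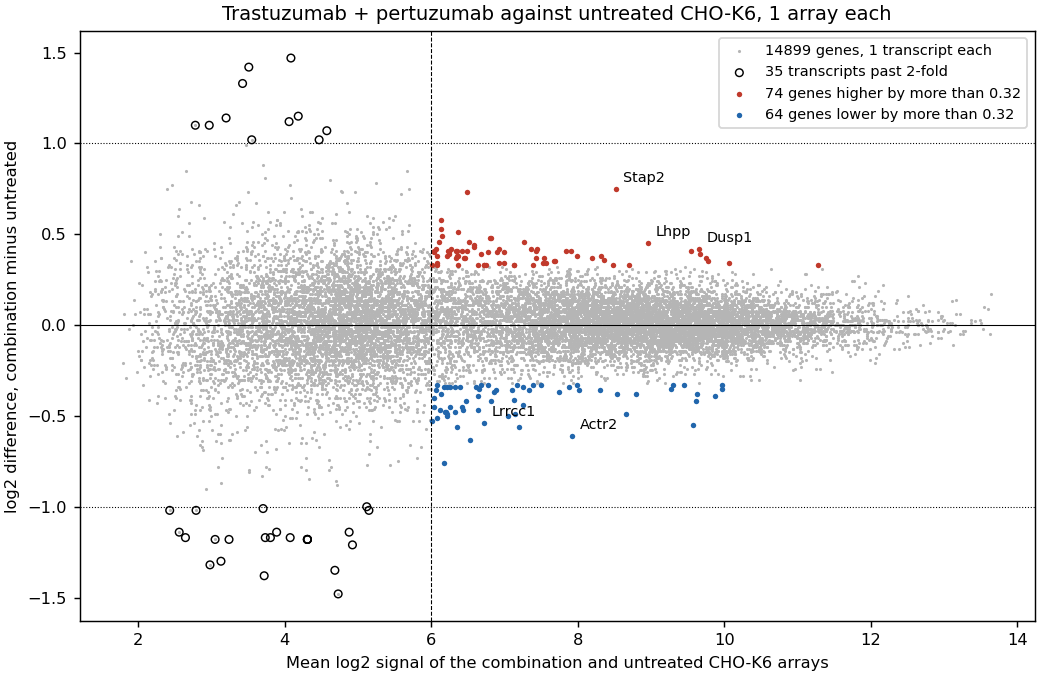
Log2 difference (combination minus untreated CHO-K6, vertical axis) against the mean log2 signal of the 2 arrays (horizontal axis) for 14899 genes, with the 35 transcripts past 2-fold circled and genes beyond 0.32 above the floor in red (74 higher) and blue (64 lower). Every circled transcript lies left of the dashed line at 6, and the cloud narrows to the right.

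At a difference of 2-fold or more, 11 of 29700 transcripts were higher with the combination, a share of 0.037%, and 24 were lower, a share of 0.0808%. None of these 35 transcripts reached the floor. Their brighter array had a log2 signal of 5.66 at most, with a median of 4.41. No symbol stood with 27 of them, and the other 8 carried only locus identifiers. The largest fall with a symbol was that of LOC100762456, at 3.99 on the combination array and 5.47 on the untreated array. It was followed by LOC100755312, at 2.32 and 3.64, and by LOC100762825, LOC100772977, LOC100765103 and LOC100771730, with differences of -1.18, -1.14, -1.02 and -1.02. The 2 higher ones were LOC100755926, at 3.33 with the combination and 2.23 untreated, and LOC100764112, at 4.06 and 3.04. In CHO-K1 the sign was the same for 6 of the 11 higher and 12 of the 24 lower transcripts. Over all 14899 genes 53.1% were higher and 44.8% lower in CHO-K1. The 35 transcripts held 32 distinct sets of values, as 4 of them had the same values on all 6 arrays. These 4, at -1.18 in CHO-K6 and -1.14 in CHO-K1, each count among the 12 lower transcripts with the same sign.

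Because no bright transcript of the 29700 passed 2-fold, genes above the floor were also described at a lower threshold, a log2 difference of more than 0.32 in size. By this rule 74 of the 9054 genes were higher with the combination, which is 0.817%, and 64 were lower, which is 0.707%. The same rule took 294 genes higher (3.25%) and 524 lower (5.79%) between the CHO-K1 arrays. At 1.5-fold only 2 genes were higher and 3 lower in CHO-K6. Most genes beyond 0.32 were dim. Their median log2 signal was 6.79 for the higher and 6.8 for the lower genes, against 8.8 for all 9054, and 44 of the 74 and 35 of the 64 had a signal between 6 and 7. Locus identifiers made up 10 of the higher and 24 of the lower genes, including LOC100752468, at 6.86 with the combination and 6.13 untreated, and LOC100765587, at 5.8 and 6.56.

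Among named genes the largest increase was that of Stap2, which encodes an SH2-domain adaptor of cytokine and growth factor receptor signalling. Stap2 had a log2 signal of 8.9 with the combination, 8.99 with trastuzumab, 9.1 with pertuzumab and 8.15 untreated in CHO-K6, and 8.92 with the combination and 8.78 untreated in CHO-K1. The untreated CHO-K6 array was thus the low one of all 6, and the other 5 lay within a narrow range. The difference of 0.75, or 1.68-fold, was also read by a second transcript of Stap2, at 7.77 with the combination and 7.21 untreated.

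Further genes of the 15 with the largest increase are given with their signals. Dusp1, the phosphatase that switches off MAP kinases and is itself an immediate early gene, had a log2 signal of 9.87 with the combination, 10.16 with trastuzumab, 9.97 with pertuzumab and 9.45 untreated in CHO-K6, and 10.47 and 10.34 on the combination and untreated arrays of CHO-K1. Here too the untreated CHO-K6 array was the lowest of the 6. Ticam1, the adaptor that links Toll-like receptor 3 to interferon production, stood at 7.66 with the combination, 7.69 with trastuzumab, 7.67 with pertuzumab and 7.24 untreated, while in CHO-K1 it stood at 7.21 with the combination and 7.29 untreated. All 3 treated CHO-K6 arrays were alike for Ticam1, and the CHO-K1 arrays differed by -0.08. Msx1, a homeobox gene induced by BMP, had 7.57 with the combination, 7.17 with trastuzumab, 7.67 with pertuzumab and 7.15 untreated. Usp18, the protease that removes ISG15 and restrains interferon signalling, had 6.8 with the combination, 6.6 with trastuzumab, 6.56 with pertuzumab and 6.37 untreated, but its second transcript differed by 0.05. The phosphatase Lhpp had 9.19 with the combination and 8.74 untreated, with 9.26 and 9.45 on the trastuzumab and pertuzumab arrays.

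Ostc, a subunit of the complex that attaches N-linked sugars to new proteins, behaved otherwise. Its log2 signal was 7.04 with the combination, 6.63 with trastuzumab, 6.42 with pertuzumab and 6.56 untreated in CHO-K6, and in CHO-K1 it was 6.67 with the combination and 6.97 untreated. The combination array was the high one among the CHO-K6 arrays, and the CHO-K1 arrays differed in the opposite direction. The other genes of the 15 with the largest increase were Tbc1d10c, a Rab GTPase-activating protein (0.51), the calcium-binding S100a3 (0.46), Pnrc2, which acts in mRNA decay (0.46), the PDZ protein Sdcbp2 (0.44), Lrguk (0.42), the zinc finger genes Zbtb9 (0.42) and Znf775 (0.42), and Ccdc85b (0.41).

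The largest decrease of a named gene was that of Actr2, which encodes the ARP2 subunit of the complex that nucleates branched actin. Actr2 had a log2 signal of 7.62 with the combination, 7.82 with trastuzumab, 7.39 with pertuzumab and 8.23 untreated in CHO-K6, and 6.83 with the combination and 7.79 untreated in CHO-K1. It was lower with the antibodies in both lines, with differences of -0.61 in CHO-K6 and -0.96 in CHO-K1, and whether the lines differ was not tested. Lrrcc1, a centrosomal protein, had 6.45 with the combination, 6.76 with trastuzumab, 6.22 with pertuzumab and 6.99 untreated, and 5.9 with the combination and 6.38 untreated in CHO-K1. It too was lower in both lines.

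The remaining genes of the 15 with the largest decrease differed by -0.53 to -0.42. Ell3, an elongation factor of RNA polymerase II, had 5.83 with the combination and 6.34 untreated. Gfi1, a transcriptional repressor, had 5.96 and 6.46, and Rnf113a, a spliceosome-associated ubiquitin ligase, had 6.9 and 7.39 on the combination and untreated arrays. Slc12a5, a potassium-chloride cotransporter best known in neurons, had 6.26 with the combination and 6.68 untreated in CHO-K6 but 6.46 with the combination and 5.97 untreated in CHO-K1, and its second transcript differed by -0.01 in CHO-K6. Mkks, a chaperonin-like protein mutated in Bardet-Biedl syndrome in humans, had 6.2 with the combination and 6.65 untreated. The rest of the 15 were Ccdc18 (-0.53), Rusc2 (-0.5), Lrrc36 (-0.48), C2H18orf32 (-0.47), Farp2, an exchange factor for Rac (-0.47), Dnajc6, which uncoats clathrin vesicles (-0.45), Tmem198 (-0.45) and Znf473 (-0.44). For Dnajc6 the other transcripts differed from -0.46 to 0.43, and for Tmem198 the other one differed by 0.26, so these probes did not show 1 common direction.

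As a yardstick for a single gene, the size of difference that 95% of transcripts of similar signal stayed under was read from the CHO-K1 pair. It was 0.5 for most named genes, 0.41 for Stap2 and Lhpp, and 0.39 for Dusp1 and Ccdc85b. Of the 15 genes with the largest increase 5 exceeded it, and of the 15 with the largest decrease 4 did (Actr2, Lrrcc1, Ccdc18 and Ell3). These genes were chosen as the extremes of the same difference, so the counts are not a test of them. One array of the CHO-K1 pair was treated, so the pair does not measure the error of repeated cultures. The transcripts of a gene gave a second yardstick. Over 878 genes with at least 2 transcripts above the floor, the differences of both transcripts correlated across genes with r = 0.308 in CHO-K6 and r = 0.515 in CHO-K1. These are transcripts of the same RNA samples and not independent cultures.

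**Figure D2:**
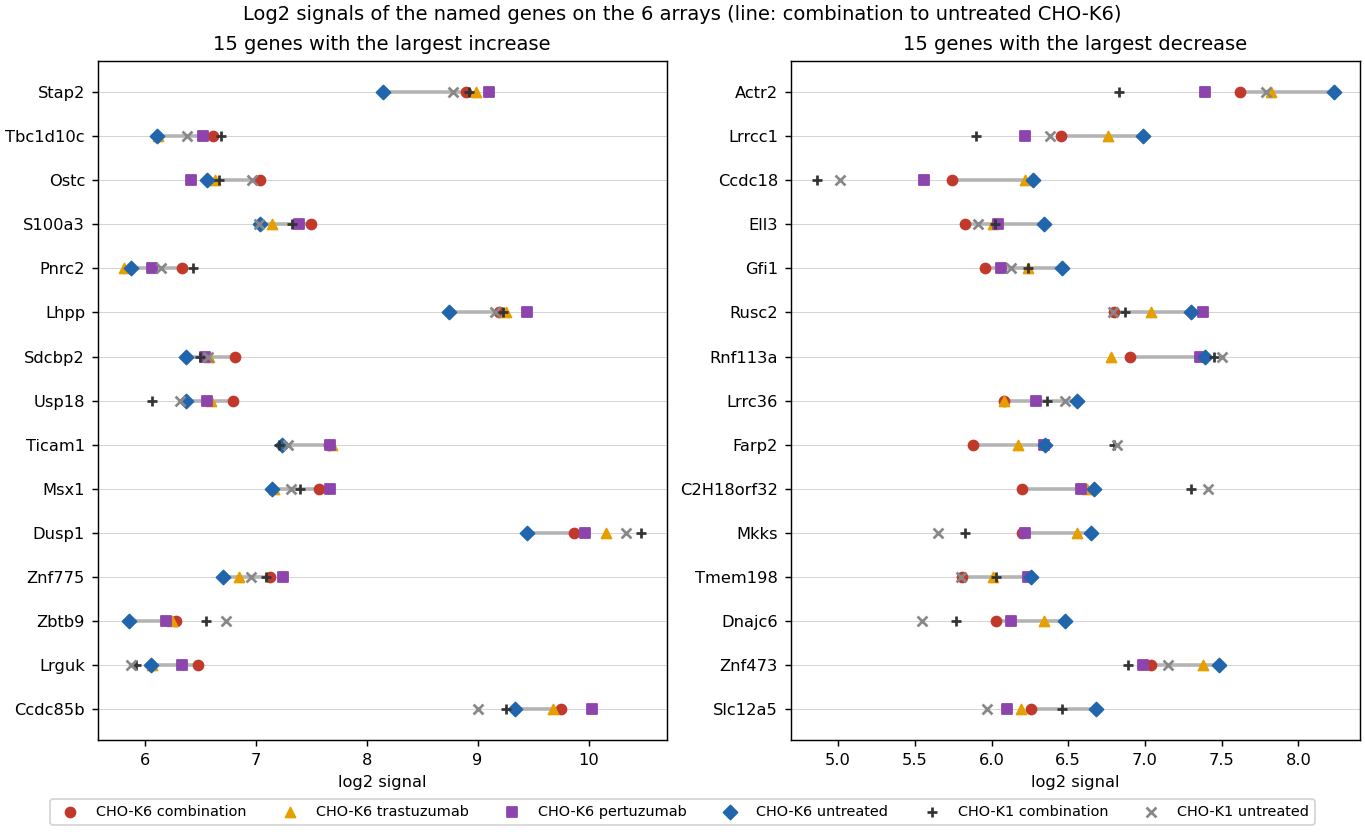
Log2 signals (horizontal axis) of the 15 genes with the largest increase and the 15 with the largest decrease on the 6 arrays, 1 symbol per array, with a grey line joining the combination and the untreated CHO-K6 array. The untreated CHO-K6 array (blue diamond) lies below all 5 other arrays for 8 of the 15 increases and above all 5 for 11 of the 15 decreases. The genes were chosen by their difference from that array, which favours such a position, so these counts are not a test of it.

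The 4 CHO-K6 arrays were then set side by side, to see which array carried a difference. A gene was counted for an array when its signal lay above or below all 3 other CHO-K6 arrays by more than 0.32. The combination array stood apart in this way for 6 of 9054 genes (0.0663%), the trastuzumab array for 29 (0.32%), the pertuzumab array for 600 (6.63%) and the untreated array for 23 (0.254%). The 6 genes of the combination array were Ostc, Ampd3, LOC100751202 and LOC100752468, which were higher, and C2H18orf32 and LOC100753222, which were lower. Ampd3, which encodes an AMP deaminase of purine metabolism, had a log2 signal of 8.54 with the combination, 8.06 with trastuzumab, 8.1 with pertuzumab and 8.18 untreated, and its signals in CHO-K1 were 6.83 with the combination and 6.78 untreated. C2H18orf32 had 6.2 with the combination, 6.62 with trastuzumab, 6.58 with pertuzumab and 6.67 untreated. The 23 genes of the untreated array included Stap2, Lhpp, Dusp1, Ticam1, Actr2 and Slc12a5, for which the combination lay with the single antibodies. The 3 antibody differences share the untreated array, and whether the antibodies or that array underlie these genes cannot be told apart.

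Gene lists of pathways were summarised by counts of members higher and lower and by the median difference, beside the values over all 14899 genes, of which 52.0% were higher and 45.3% lower with a median of 0.01. The median difference of the 30 lists ranged from -0.105 to 0.115, and 22 of the 30 medians lay within 0.05 of 0. A list was described as higher or lower where its median was at least 0.1 from 0 and 75% of its measured members lay on that side. None of the 30 was higher by this rule, 1 was lower, the G2/M and mitosis genes, and 29 were neither. The lists held 806 distinct genes, 731 of them above the floor. Of these, 7 were higher by more than 0.32 (Usp18, Msx1, Csf3, Dusp1, Fos, Id1 and Id3) and 2 lower (Orc4 and Eif2ak2), or 0.958% and 0.274% of the listed genes above the floor beside 0.817% and 0.707% of all genes, and 25 lists had no member past it. Highest and lowest members of a list are given among those above the floor.

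**Figure D3:**
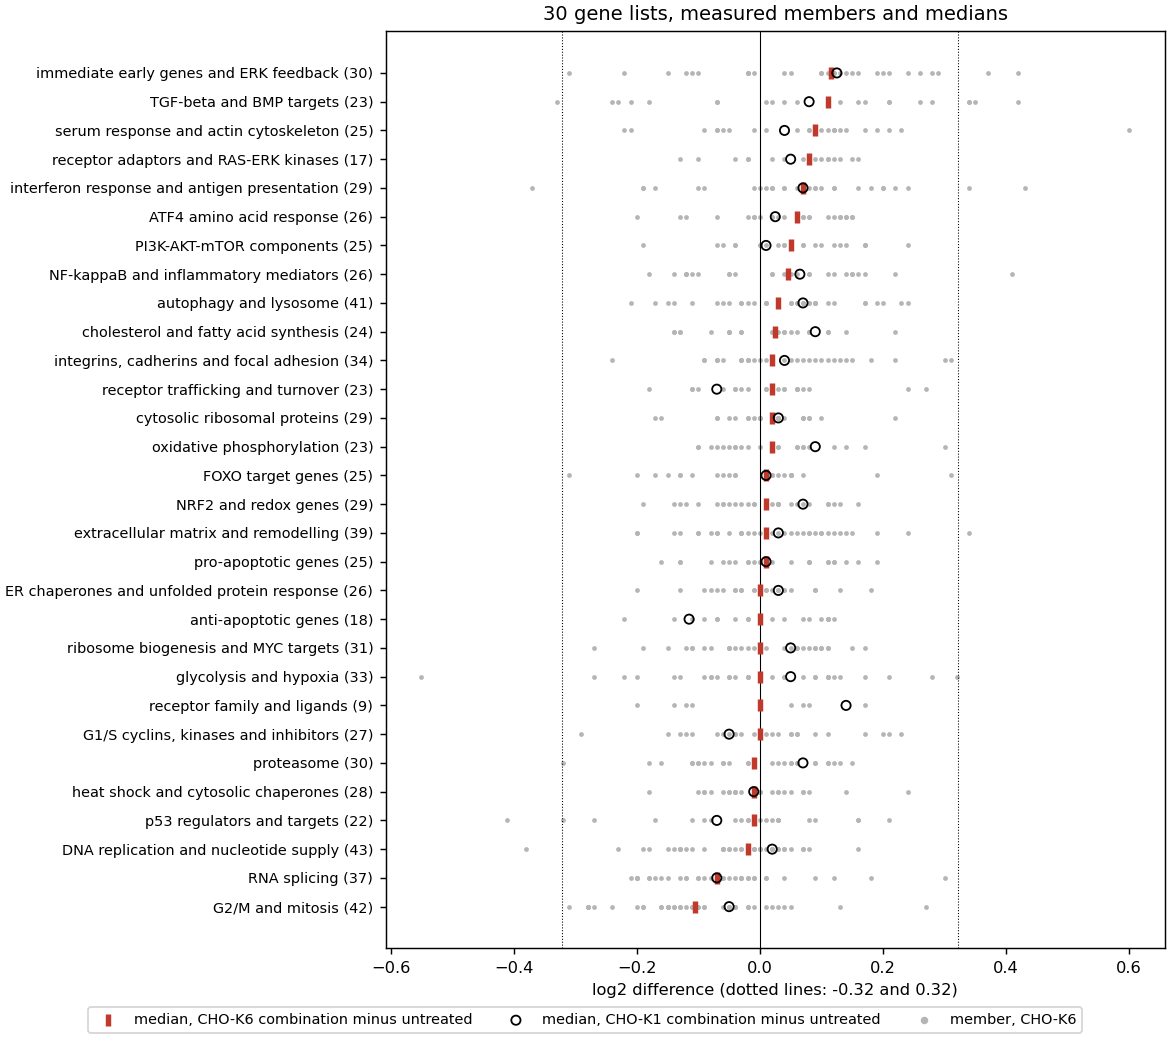
Log2 difference (combination minus untreated, horizontal axis) of the measured members (grey points, CHO-K6) of 30 gene lists, with the list's median in CHO-K6 as a red bar and in CHO-K1 as an open circle; the number of measured members stands in parentheses. The medians in CHO-K6 run from -0.105 for G2/M and mitosis to 0.115 for the immediate early and ERK feedback genes.

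The receptor family and its ligands differed little. Of 15 listed genes 9 were measured and 5 lay above the floor. The ligand Ereg had a log2 signal of 9.23 with the combination and 9.15 untreated, Areg had 7.76 and 7.71, Nrg2 had 7.07 and 7.0, and Tgfa had 6.12 and 6.24. Egfr, at 5.38 and 5.21, was below the floor. The median of the list was 0.00 in CHO-K6 and 0.14 in CHO-K1.

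Adaptors and kinases of the RAS-ERK pathway had a median of 0.08, with 12 of 17 higher. Shc1 and Grb2, which dock on the phosphorylated receptor, differed by 0.13 and 0.02. The kinases Araf (0.16), Map2k2 (0.15), Braf (0.09) and Mapk3 (0.04) were all slightly above the untreated array, while Hras (-0.1) and Rasa1 (-0.13), a GTPase-activating protein of RAS, were below it. Of the PI3K-AKT-mTOR components 18 of 25 were higher and 5 lower, with a median of 0.05. Rps6kb2 (0.24), Tsc2 (0.17), Pik3r2 (0.17) and Akt1 (0.17) were the highest, and Rps6kb1 (-0.19) and Pik3ca (-0.07) the lowest. No member of the lists named so far differed by more than 0.32. Among genes of receptor trafficking and turnover, with a median of 0.02, the endophilin Sh3gl1 (0.27) and the ubiquitin ligase Cblb (0.24) were highest, and Hsp90aa1, a chaperone on which HER2 depends (-0.18), and the sorting proteins Stam2 (-0.11) and Rab5a (-0.11) were lowest.

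Immediate early genes and feedback inhibitors of ERK had the highest median, 0.115, with 20 of 30 higher. Fos, which encodes a subunit of AP-1, had a log2 signal of 6.64 with the combination and 6.27 untreated. The inhibitors Spry2 (0.26), Spry4 (0.24) and Dusp6 (0.21) were also higher, as were Ier2 (0.29) and Ier3 (0.28). Egr1 differed by 0.14, Fosl1 by 0.12 and Myc by 0.11. Others lay on the opposite side, among them Ccn1 (-0.22), Klf4 (-0.15) and Spred1 (-0.11). The median of the same list between the CHO-K1 arrays was 0.125, so a difference of this size was also seen in the line without human HER2. With the trastuzumab array as the reference in CHO-K6 it was 0.005.

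Targets of TGF-beta and BMP had a median of 0.11 in CHO-K6, with 16 of 23 higher, and of 0.08 in CHO-K1. The inhibitors of differentiation Id1, Id2 and Id3 are direct BMP targets. Id1 had a log2 signal of 7.85 with the combination and 7.5 untreated, and Id3 had 10.23 and 9.89. In CHO-K1 both Id1 and Id3 were higher with the combination by 0.4. Id2 (0.26) and the BMP-induced inhibitor Smad6 (0.21) were higher in CHO-K6 as well, whereas Ltbp2 (-0.24) and Bambi (-0.23) were lower. Serum response and actin genes had a median of 0.09, with Srf (0.23) and Tagln (0.21) highest and Ccn1 (-0.22) and Acta2 (-0.21) lowest. Targets of FOXO, transcription factors held out of the nucleus by AKT, were split, with 13 higher, 12 lower and a median of 0.01, and Fbxo32, a ubiquitin ligase of muscle atrophy (0.19), and Trib1 (0.07) were highest and Ccng2 (-0.31) and Ddit4 (-0.2) lowest.

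The G2/M and mitosis genes were the list that met the rule. Of 42 measured genes 35 were lower and 7 higher with the combination, with a median of -0.105. None differed by more than 0.32, and 23 (54.8%) were lower by at least 0.1, as were 17.1% of all genes above the floor. That share uses the same difference as the rule and is not separate from it. Smc2 and Smc4, the core of condensin, which compacts chromosomes, showed the pattern. Smc2 had a log2 signal of 10.07 with the combination, 10.15 with trastuzumab, 9.62 with pertuzumab and 10.35 untreated in CHO-K6, and 9.42 with the combination and 9.81 untreated in CHO-K1. Smc4 had 11.14 with the combination, 11.28 with trastuzumab, 10.72 with pertuzumab and 11.38 untreated in CHO-K6, and 10.45 with the combination and 10.85 untreated in CHO-K1. Among the CHO-K6 arrays the untreated one was the highest and the pertuzumab one the lowest for both. The further condensin subunits Ncapg and Ncapd2 differed by -0.14 and -0.05.

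Cenpe, a kinesin of the kinetochore, had a log2 signal of 10.11 with the combination, 10.31 with trastuzumab, 9.8 with pertuzumab and 10.39 untreated. Nusap1, which bundles spindle microtubules, had 9.84 with the combination and 10.12 untreated, and the spindle protein Ckap2 had 9.45 and 9.72. Cenpa (-0.06), Cenpf (-0.02) and Mad2l1 (0.01), which also act at the kinetochore, stood near 0. Differences of Ndc80 (-0.14), Nuf2 (-0.19) and Spc25 (-0.12), which form the microtubule-binding complex of the kinetochore, and of Tpx2 (-0.19) and Kif20a (-0.2) were smaller. The kinases and cyclins that drive entry into mitosis stood nearer to 0, with Cdk1 at -0.05, Ccnb1 at -0.04, Ccnb2 at -0.01, Plk1 at -0.04 and Aurka at 0.02. Foxm1, the transcription factor of many mitotic genes, differed by 0.03. Fzr1, the activator of the anaphase-promoting complex that ends mitosis, was the highest of the list, at 9.66 with the combination, 9.77 with trastuzumab, 9.99 with pertuzumab and 9.39 untreated, and Espl1, which cleaves cohesin, followed (0.13).

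The mitotic list was set beside the other arrays. Its median was -0.045 for trastuzumab and -0.055 for pertuzumab, each against the same untreated array, and -0.05 in CHO-K1, where 25 genes were lower and 17 higher. The untreated array was the highest of the 4 CHO-K6 arrays for 22 of the 42 genes (52.4%, against 16.8% of all genes above the floor), and the combination array was the lowest for 13 (31.0%, against 13.8%). Both shares reuse the difference by which the list met the rule, so they are not a test of it. With the trastuzumab and pertuzumab arrays averaged as the reference, the median was -0.025, with 23 genes lower and 18 higher. With the trastuzumab array alone as the reference, a choice made after the pertuzumab array was seen to stand apart, it was -0.06, with 34 lower and 8 higher. Across the 42 genes the differences in CHO-K6 and CHO-K1, which share no array, correlated with r = 0.512 (Spearman's rho = 0.515). Over all genes above the floor r was 0.274 (rho = 0.3). Genes are not independent replicates, and this is a description.

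**Figure D4:**
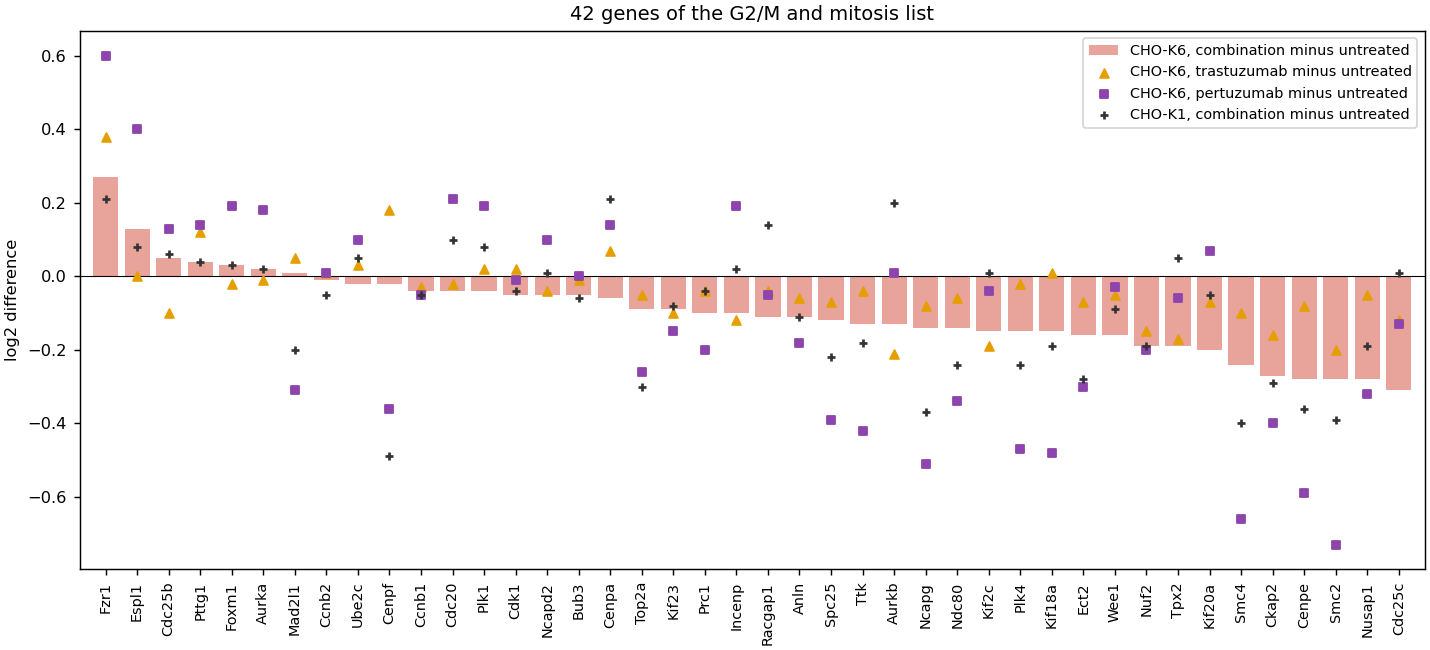
Log2 difference (vertical axis) of 42 G2/M and mitosis genes, ordered by the combination minus untreated difference in CHO-K6 (bars), with trastuzumab and pertuzumab minus the same untreated array and the combination minus untreated difference in CHO-K1 as symbols. Bars lie below 0 for 35 genes, and the pertuzumab values spread from -0.73 to 0.6.

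Neither list of earlier steps of the cell cycle met the rule. Cyclins, kinases and inhibitors of G1/S had a median of 0.00, with 13 higher and 12 lower. Ccne1, the cyclin of S-phase entry, had a log2 signal of 7.13 with the combination and 6.9 untreated, and Cdkn1a, the p21 inhibitor of cyclin-dependent kinases, had 9.04 and 8.83. The lowest members were Cdk7 (-0.15), which activates other cyclin-dependent kinases, and the inhibitor Cdkn1b, or p27, at 10.27 and 10.4. Ccnd1, the cyclin downstream of growth factor receptors, had 11.84 and 11.79. DNA replication genes had a median of -0.02, with 27 of 43 lower (62.8%, against 45.3% of all genes). The subunits of the origin recognition complex included the lowest members, Orc4, at 8.35 with the combination and 8.73 untreated, and Orc6, at 8.65 and 8.88. Orc2 (-0.14), Orc5 (-0.12) and Orc1 (-0.05) were also lower and Orc3 (0.07) was not. The helicase subunits Mcm2, Mcm3, Mcm4 and Mcm5 lay between -0.06 and 0.02, and Tk1, which supplies thymidine nucleotides, was the highest (0.16), followed by Gins2 (0.08).

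RNA splicing genes came close to the rule, with 30 of 37 lower and a median of -0.07, and the median in CHO-K1 was also -0.07. Against the same untreated CHO-K6 array the median was -0.04 for trastuzumab and -0.16 for pertuzumab. The SR proteins, which mark exons for splicing, were lower for Srsf5 (-0.21), Srsf4 (-0.2), Srsf3 (-0.18), Srsf1 (-0.16) and Srsf10 (-0.15), and higher for Srsf9 (0.3). Srsf7 (-0.06), Srsf11 (0.01) and Srsf6 (0.04) stood nearer to 0. The snRNP core protein Snrpb was the next highest (0.18), and Luc7l and Prpf39 stood at -0.2. The hnRNP proteins Hnrnpc (-0.2), Hnrnpu (-0.13) and Hnrnpd (-0.12) were lower. Ribosome biogenesis genes and MYC targets had a median of 0.00, between Odc1 (0.17) and Polr1b (0.15) and Fbl (-0.19) and Taf1d (-0.27). Cytosolic ribosomal proteins had one of 0.02, between Rps28 (0.22) and Rps16 (0.1) and Rps3 (-0.16) and Rps25 (-0.17).

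Lists of cell death genes had medians near 0. Pro-apoptotic genes had a median of 0.01, with 13 of 25 higher, from Tradd (0.19) and the nuclease Dffb (0.16) to Bnip3 (-0.13) and Aifm1 (-0.16). Bcl2l11, the BH3-only protein known as BIM, had a log2 signal of 8.27 with the combination and 8.22 untreated. Anti-apoptotic genes had a median of 0.00, with 9 higher and 9 lower, with Birc6 (0.12), Bcl2l1, Dad1 and Cflar (0.11 each) highest and Api5 (-0.22) and Bcl2l10 (-0.14) lowest. In CHO-K1 the median of the anti-apoptotic genes was -0.115. Autophagy and lysosome genes had a median of 0.03, with 29 of 41 higher. Gabarapl2 (0.24), Atg4d (0.23), Tfeb, a master regulator of lysosomal genes (0.2), and Ulk1, the kinase that starts autophagy (0.19), were higher, and Map1lc3b (-0.17) and Lamp1 (-0.21) were lower. The list of p53 regulators and targets had a median of -0.01, between Cdkn1a (0.21), Phlda3 (0.16) and Polk (0.16) on one side and Mdm4 (-0.17) and Aen (-0.27) on the other.

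Interferon response and antigen presentation genes had a median of 0.07, with 21 of 29 higher. Besides Usp18, the peptide transporter subunit Tap1 (0.22), the immunoproteasome subunit Psmb10 (0.24) and the transcription factor Irf7 (0.18) were higher, whereas Eif2ak2, the kinase PKR that senses double-stranded RNA, had a log2 signal of 7.56 with the combination and 7.93 untreated, and Parp14 was next lowest (-0.19). In CHO-K1 the median was likewise 0.07 and Eif2ak2 was lower by 0.33. Usp18, however, was lower there (-0.25, and -0.54 for its second transcript), while Tap1 (0.26) and Psmb10 (0.45) were higher and Irf7 did not differ (0.0). NF-kappaB and inflammatory genes had a median of 0.045. Csf3, the growth factor of granulocytes, had 6.56 with the combination and 6.15 untreated, Tnfaip2 followed (0.22), and Il18 (-0.18) and the chemokines Cxcl1, Ccl5 and Cxcl12 (-0.12 each) were lowest. Genes of the ATF4 amino acid response had a median of 0.06, with 18 of 26 higher, led by the amino acid transporter Slc7a1 (0.15) and Nupr1 (0.15), and Ddit4 (-0.2) and the transporter Slc38a2 (-0.12) were lowest. Atf4 itself differed by -0.01. The lists for ER chaperones, heat shock, redox control, lipid synthesis, glycolysis, oxidative phosphorylation, the proteasome, the extracellular matrix and adhesion all had medians from -0.01 to 0.025. The list of leukocyte and endothelial markers, kept apart from the 30, met the rule for a higher list, with 7 of 8 higher and a median of 0.13. Most of it lay below the floor, as only Cd68 (6.8) and Cdh5 (6.16) reached a signal of 6 on the combination array and Ptprc stood at 3.99.

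The same antibodies on CHO-K1 gave the closest comparison, since that line lacks human HER2 and its arrays are not part of the CHO-K6 difference. Across the 9054 genes the differences in CHO-K6 and CHO-K1 correlated with r = 0.274 (rho = 0.3). Of the 74 genes higher in CHO-K6 44 were higher in CHO-K1 too (59.5%, against 53.3% of all genes above the floor), and 7 passed 0.32 in the same direction, whereas 6 passed it in the opposite one. Of the 64 genes lower in CHO-K6 43 were lower in CHO-K1 (67.2%, against 44.4%), and 14 passed 0.32 in the same direction and 3 in the opposite one. Over all 9054 genes 3.25% were higher and 5.79% lower by more than 0.32 in CHO-K1. These shares are not matched for signal, and the genes beyond 0.32 in CHO-K6 were mostly dim. In CHO-K1 the SD across transcripts was 0.255 between log2 signals of 6 and 7 and 0.215 between 8 and 9. The median CHO-K1 difference was 0.065 for the higher genes and -0.115 for the lower ones. The cause of the differences seen in both lines was not tested.

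**Figure D5:**
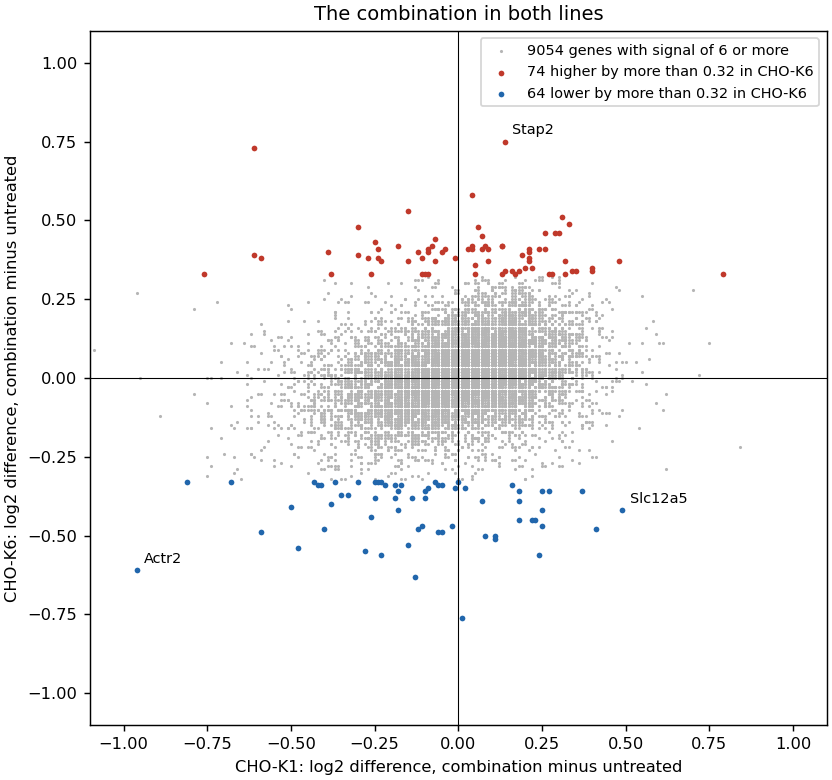
Log2 difference, combination minus untreated, in CHO-K6 (vertical axis) against that in CHO-K1 (horizontal axis) for 9054 genes above the floor, with the 74 genes higher by more than 0.32 in CHO-K6 in red and the 64 lower in blue. Actr2 lies low in both lines, Stap2 differs by 0.75 in CHO-K6 and 0.14 in CHO-K1, and the cloud is wider along the CHO-K1 axis (SD 0.194) than along the CHO-K6 axis (SD 0.122).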

How the data were processed

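Affymetrix CHO Gene ST arrays measured RNA of 6 conditions, 1 array per condition. The authors deposited log2 signals per transcript, made with the Affymetrix Transcriptome Analysis Console. The submitters' processing notes also name the Affymetrix Expression Console. The normalization method is not given in the sources used here, and probe intensities were not reprocessed. The number of arrays limits the precision.

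The deposited log2 signals were used without further scaling, and gene symbols came from the platform annotation, with 16394 of 29700 transcripts matched to a RefSeq gene. Differences were taken between 2 arrays, and transcripts were counted at 2-fold, and genes at more than 0.32 on the log2 scale where the 2 arrays averaged 6 or more. Named genes were the 15 with the largest increase and decrease among genes with 1 symbol above that floor, leaving out locus identifiers, then transcripts past 2-fold with a symbol, and the 2 highest and 2 lowest members above the floor of each list described beyond its median. Other list members and the genes at which 1 array stood apart were named after their values were seen. The list members and rules were chosen with earlier results of these data known. No test was possible with 1 array a side. A planned description of promoter motifs was not made, as no promoter sequences were used here. Alternatives were quantile normalization, signal-dependent centring, the series matrix table, the mean of the single-antibody arrays or the trastuzumab array as reference, subtraction of the CHO-K1 difference, other thresholds and floors, and averaging a gene's transcripts. The calculations were tested on simulated data. Python 3.11.15, NumPy 2.4.6, pandas 2.3.3 and matplotlib 3.10.9 were used.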

Additional observations from a re-analysis of the deposited data

Results flagged for a closer look

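For 6 of the 38 named genes and loci the combination difference was more than 0.32 in size in both lines and opposite in direction, and the difference between the lines was not tested. Slc12a5 differed by -0.42 in CHO-K6 and 0.49 in CHO-K1. LOC100762456 differed by -1.48 and 0.66, LOC100762825 by -1.18 and 0.34, LOC100772977 by -1.14 and 0.65, and LOC100771730 by -1.02 and 0.66 in CHO-K6 and CHO-K1. LOC100764112 differed by 1.02 in CHO-K6 and -0.73 in CHO-K1. The loci had log2 signals below 6 on both CHO-K6 arrays.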

How the results depend on the processing

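The counts depended on the threshold, the floor and the reference. The 35 transcripts past 2-fold numbered 190 in the series matrix table, where 155 further transcripts passed it. They numbered 461 at 1.5-fold, 8 with 1 gene symbol, and 0 with a signal of 6 or more. The 138 genes beyond 0.32 numbered 5 at 1.5-fold, 353 with a floor of 5 and 958 with none. With the CHO-K1 difference subtracted there were 284 transcripts and 884 genes. With the trastuzumab and pertuzumab arrays averaged as the reference 13 transcripts passed 2-fold. The mitotic median of -0.105 was -0.025 with that reference and 0.0 with the CHO-K1 difference subtracted, and the cause was not tested. With the averaged trastuzumab and pertuzumab arrays as the reference 7 named genes changed direction. They were Stap2 (-0.14), Lhpp (-0.17), Dusp1 (-0.2), Ticam1 (-0.02), Ccdc85b (-0.1), Actr2 (0.01) and Slc12a5 (0.12). With the same reference 22 of the other named genes moved by more than the CHO-K1 SD of 0.194, and 9 of 38 did not. With the CHO-K1 difference subtracted Actr2 turned (0.35), 18 moved and 19 did not. The trastuzumab array alone as the reference was added after the data were seen. It left 25 transcripts and 144 genes past their thresholds and a mitotic median of -0.06, and turned Stap2 (-0.09), Lhpp (-0.07), Dusp1 (-0.29), Ticam1 (-0.03), Rnf113a (0.12) and Slc12a5 (0.07), while 19 moved and 13 did not. Quantile normalization left 37 transcripts and 138 genes past their thresholds, and signal-dependent centring 35 and 142. Higher genes then numbered 64 and 62 in place of 74, and lower genes 74 and 80 in place of 64. Which direction held more genes thus depended on the scaling. With 1 array per condition no array could be left out and no paired analysis was possible.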
